A study of Homo sapiens with 4 samples.

Results

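Hi-C was used to map chromatin loops in MDA-MB-231 cells, a human triple negative breast cancer line, and 789 loops appeared in the lists of both THZ1 libraries without a counterpart in a vehicle list. The loops were chosen by their calls: a loop in the list of THZ1 replicate 1 was kept when THZ1 replicate 2 held a loop with both anchor midpoints within 20 kb and when neither vehicle list did. These THZ1-only loops were 789 of the 17222 loops of THZ1 replicate 1 and matched 789 distinct loops among the 15066 of THZ1 replicate 2, beside 20768 and 24219 loops in vehicle replicates 1 and 2 and 77275 loops in the 4 lists together. The treated group received 75 nM THZ1, a covalent inhibitor of CDK7 that also acts on CDK12 and CDK13, for 48 h, and the vehicle group received DMSO for 48 h. Both groups were wild type cells of this 1 established line, with 2 libraries each. The labels call the replicates technical, and nothing in them states that the libraries of a group came from separate cultures. Every p-value therefore measures only the spread between these libraries, and not that between separate cultures. The lists give no total number of contacts per library.

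A chromatin loop brings a pair of distant sites, its anchors, into frequent contact. Cohesin is thought to extrude DNA until it is halted at CTCF sites, which most often face each other at the anchors, and other loops join promoters with enhancers. CDK7 is a subunit of TFIIH that phosphorylates the tail of RNA polymerase II and activates the cell cycle CDKs. A loop is called where a map pixel holds more contacts than its surroundings, and its strength is given here as observed contacts over those expected from the donut-shaped neighbourhood of the pixel.

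The anchors were read for the CTCF core consensus, a 12-letter sequence taken by its name and searched on both strands of GRCh37, the build that the submitters' processing notes call hg19. Of the 789 THZ1-only loops, 46 (5.83%, 95% Wilson interval 4.40 to 7.69) carried a convergent arrangement, with the consensus on the plus strand of the first anchor and on the minus strand of the second. The following stretches of 30 bases come from 4 of these loops with at least 20 contacts in both THZ1 libraries, picked after their values were seen, and are shown because they hold the matched letters at both ends of a loop. Each is written 5′ to 3′ on the strand named, and capitals mark the 12 letters of the consensus.
chr9:129261629-129261658, first anchor, plus strand: ggcctgtgcCCACCAGAGGGCgcaggcccg
chr9:129263328-129263357, first anchor, plus strand: cccaggcggCCACCAGGTGGCagtgtcctc
chr9:129544224-129544253, second anchor, minus strand: agcatacggCCAGCAGATGGCgctgaaagc
chr2:11618221-11618250, first anchor, plus strand: aagtgctctCCACCAGGTGGCgcactttca
chr2:11919475-11919504, second anchor, minus strand: ctcctccggCCACCAGGGGGCagggaagcg
chr7:32805441-32805470, first anchor, plus strand: actatttaaCCAGCAGATGGCaataatgat
chr7:33147463-33147492, second anchor, minus strand: aatgttatcCCACCAGGTGGCagcctgaga
chr22:36591111-36591140, first anchor, plus strand: ctcccatcaCCAGTAGATGGCagaactgac
chr22:36885891-36885920, second anchor, minus strand: gcagcaaagCCACCAGATGGCacgtgaggg

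The chromosome 9 loop, 280 kb long, held 26 contacts in THZ1 replicate 1 and 22 in THZ1 replicate 2, at 7.86 and 6.63 times the expected number. The chromosome 2 loop of 300 kb held 25 and 23 contacts at ratios of 5.57 and 5.75. No protein-coding start site lay in an anchor of either loop. The chromosome 7 loop of 340 kb ended at the start sites of BBS9, which encodes a subunit of the ciliary BBSome, and RP9, with ratios of 6.55 and 3.53. The chromosome 22 loop of 300 kb ended at TXN2, which encodes mitochondrial thioredoxin, with ratios of 4.06 and 4.66.

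Among the 55 THZ1-only loops whose anchors each held the consensus in a single orientation, 43 (78.2%) were convergent, 11 were tandem and 1 was divergent. By the same measure 82.8% of the loops in all 4 lists, 61.9% of those that THZ1 replicate 1 alone listed and 35.1% of the vehicle-only loops were convergent. Over all loop sizes, 3.27% of the 8677 loops in all 4 lists and 0.441% of the 3402 loops in both vehicle lists and neither THZ1 list (vehicle-only loops) carried a convergent arrangement. Because wider anchors hold more sequence and the sets differ in size, anchors of loops over 200 kb were also set side by side by width. Of the 5 kb anchors, 20.7% of the THZ1-only, 20.3% of the shared and 6.13% of the vehicle-only anchors held the consensus, against 1.87% of all 5 kb bins of the genome. The shares were 23.9%, 20.6%, 8.76% and 3.68% at 10 kb and 31.0%, 27.7%, 19.4% and 8.82% at 25 kb. THZ1-only anchors therefore carried the consensus about as often as the anchors of loops in all 4 lists, and more often than vehicle-only anchors at each width. Convergent loops over 200 kb made up 13 of 230 THZ1-only loops with 10 kb anchors (5.65%, interval 3.33 to 9.43), 40 of 929 shared loops (4.31%, 3.18 to 5.81) and 1 of 274 vehicle-only loops (0.365%, 0.0645 to 2.04). With 25 kb anchors they made up 26 of 303 (8.58%, 5.92 to 12.3), 18 of 365 (4.93%, 3.14 to 7.66) and 4 of 232 (1.72%, 0.672 to 4.35), and with 5 kb anchors 3 of 70 (4.29%, 1.47 to 11.9), 102 of 2472 (4.13%, 3.41 to 4.98) and 1 of 212 (0.472%, 0.0833 to 2.62). The intervals of the THZ1-only and shared loops overlapped at each width. These intervals cover counting error only, and no test was made over loops. A looser form, which fixes only CCA at the start, AG in the middle and GGC at the end of the 12 letters and so includes every match of the core consensus, raised the convergent share to 16.6% of the THZ1-only loops, and 44.4% of all 25 kb bins held it. The consensus was found in 16.1% of the 5 kb, 22.8% of the 10 kb and 30.5% of the 25 kb THZ1-only anchors that a vehicle loop also used, and in 21.7%, 17.9% and 28.2% of those that none used. A match is a description of letters, and CTCF binding was not measured here.

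**Figure D1:**
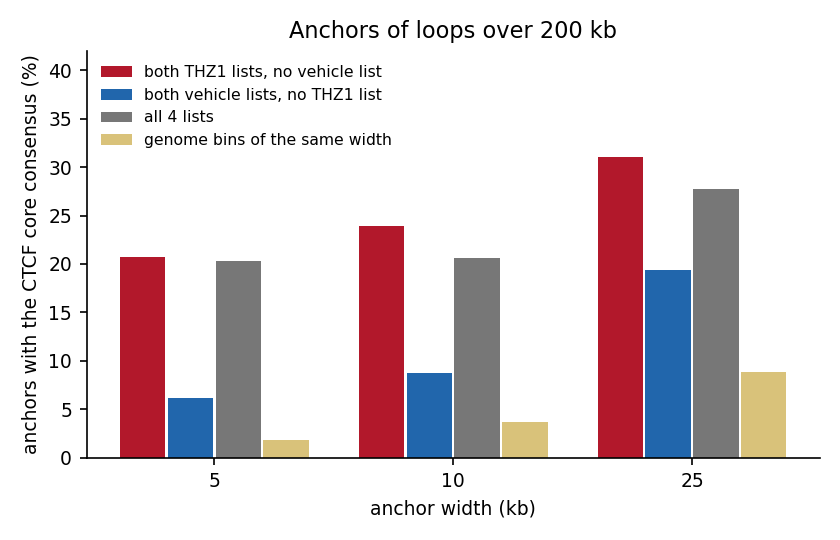
Share of anchors (percent, vertical axis) that hold the CTCF core consensus, by anchor width in kb, for loops over 200 kb in both THZ1 lists and no vehicle list, in both vehicle lists and no THZ1 list and in all 4 lists, beside genome bins of the same width. The THZ1-only bars reach 20.7%, 23.9% and 31.0% and the vehicle-only bars 6.13%, 8.76% and 19.4%.

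THZ1-only loops were long. Their median size, the distance between anchor starts, was 410 kb in THZ1 replicate 1 and 415 kb in THZ1 replicate 2, with quartiles of 220 and 725 kb in the first. The median was 170 kb for loops in all 4 lists and 85.0 kb for vehicle-only loops. Only 49 of the 789 loops (6.21%) measured up to 90 kb, 137 (17.4%) over 90 to 200 kb, 286 (36.2%) over 200 to 500 kb, 222 (28.1%) over 500 kb to 1 Mb and 95 (12%) more. Loops that THZ1 replicate 1 alone listed, 2441 in number, had a median of 340 kb, so that length was not confined to the calls that both THZ1 libraries shared. Anchor width moved with size: 332 THZ1-only loops (42.1%) were called with 25 kb anchors, 303 (38.4%) with 10 kb and 154 (19.5%) with 5 kb anchors, with median sizes of 575, 360 and 185 kb. In the loops of all 4 lists 5.42% had 25 kb anchors and 76.3% had 5 kb anchors.

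**Figure D2:**
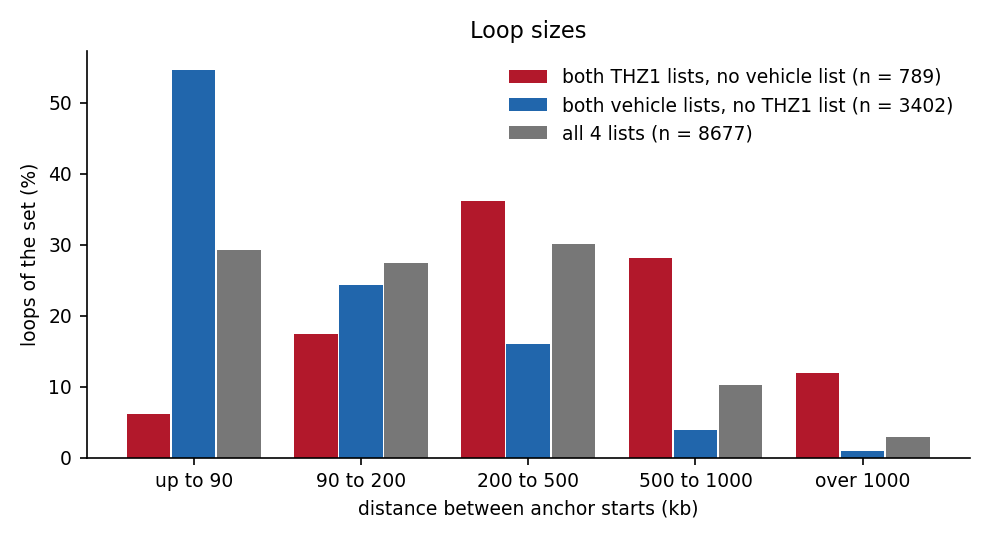
Share of loops (percent, vertical axis) in 5 classes of size, the distance between anchor starts in kb, for THZ1-only loops, vehicle-only loops and loops in all 4 lists. Loops over 200 and up to 500 kb form the tallest THZ1-only class at 36.2%, while 6.21% measure up to 90 kb.

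The limit of 20 kb placed many loops close to the boundary of the rule. The distance between loops is the larger of the distances between their first and between their second anchor midpoints. For 100 THZ1-only loops (12.7%) the nearest vehicle loop lay over 20 and up to 25 kb away, and for 184 (23.3%) over 25 and up to 50 kb away. A further 276 loops of both THZ1 lists were left out because a vehicle loop lay over 15 and up to 20 kb away. The loops just inside had a median size of 300 kb and a median ratio of 3.33 in THZ1 replicate 1, and those just outside 210 kb and 4.03. At the far end, 37 loops (4.69%) had no vehicle loop with both anchors within 500 kb of theirs, and the median distance was 82.5 kb. A vehicle loop that shares a single anchor can lie far away by this measure.

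The anchors of the THZ1-only loops were mostly sites that vehicle loops already used. A vehicle loop had an anchor midpoint within 20 kb of at least 1 anchor in 764 of 789 loops (96.8%, 95% Wilson interval 95.4 to 97.8), of both anchors in 531 (67.3%) and of neither in 25 (3.17%). By the same measure, 35.8% of the 10 kb bins of the genome lay near a vehicle anchor, a rate for single bins and not for loops with an anchor at each end. Loops of the other sets also had a used anchor in most cases: 93.2% of the vehicle-only loops against THZ1 loops, 93.1% of the loops that THZ1 replicate 1 alone listed against vehicle loops, and 98% of the loops in all 4 lists against other vehicle loops. Vehicle replicate 1 alone gave 737 loops with a used anchor and vehicle replicate 2 alone gave 749. Of the 1578 anchors, 1100 were used in both vehicle lists, 74 in vehicle replicate 1 alone, 121 in vehicle replicate 2 alone and 283 in neither. A used anchor carried a median of 4 vehicle loop ends and at most 32, summed over both vehicle lists. A loop called in both lists was counted in each.

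In 633 THZ1-only loops (80.2%) a shorter vehicle loop started from an anchor and ended inside the loop. In 202 loops (25.6%) vehicle loops formed a chain, from the first anchor to an inner site and from that site to the second anchor, so that the THZ1-only loop joined the outer ends. In 425 loops (53.9%) a longer vehicle loop shared an anchor, and 515 loops (65.3%) lay within a vehicle loop. In the mirror comparison, a longer THZ1 loop shared an anchor in 73.4% of the vehicle-only loops, and 88.7% lay within a THZ1 loop. For loops in all 4 lists, set against the other vehicle loops, these shares were 81.9% and 84.5%. A shorter THZ1 loop shared an anchor in 34.6% of the vehicle-only loops and 8.85% spanned a chain. The shares with a shorter loop and with a chain were lowest in loops of up to 90 kb in either set. They were 32.7% and 10.2% of the THZ1-only and 6.62% and 1.02% of the vehicle-only loops. Over 200 and up to 500 kb, a shorter loop shared an anchor in 83.2% (78.5 to 87.1) of the THZ1-only and 81.9% (78.5 to 84.9) of the vehicle-only loops, and chains were seen in 25.5% (20.8 to 30.9) and 21.9% (18.6 to 25.5). Within a size class of over 200 kb the intervals of the 2 sets overlapped for all 3 measures plotted. They did not overlap for the other measures given above in loops over 200 and up to 500 kb. A longer loop shared an anchor in 59.1% (53.3 to 64.6) of the THZ1-only and 71.5% (67.6 to 75.2) of the vehicle-only loops. In the same class 64.7% (59.0 to 70.0) and 82.3% (78.9 to 85.3) lay within a loop of the other condition. Loops of all 4 lists, set against the other vehicle loops, had a shorter loop in 84.5% and a chain in 46.7% of that size class. The rule itself uses the vehicle lists, so these shares describe the loops and were not tested.

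**Figure D3:**
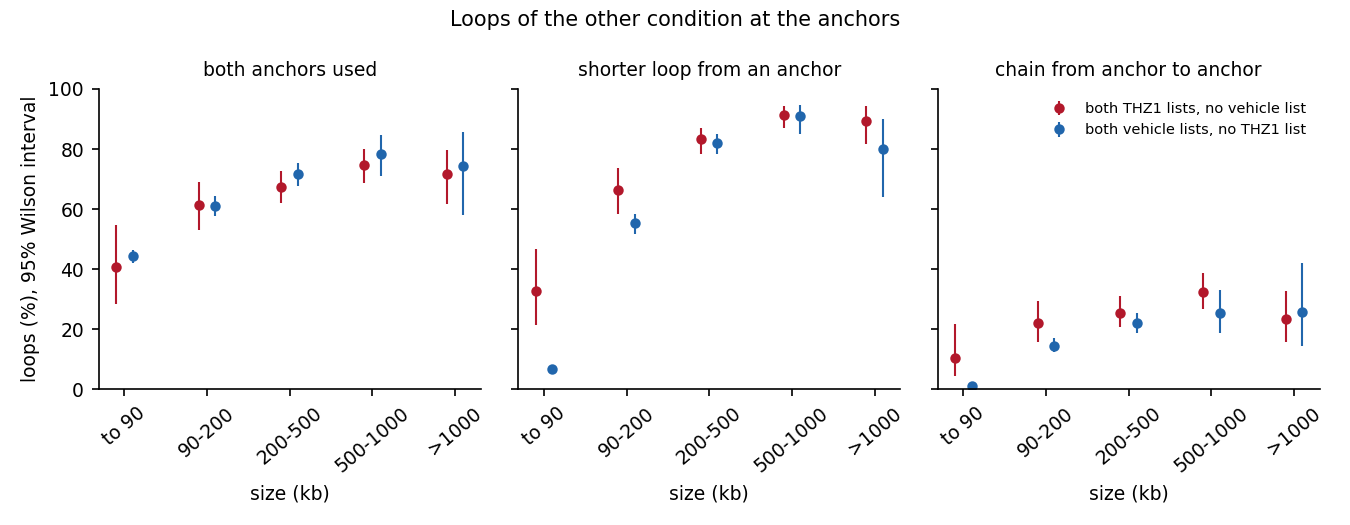
Share of loops (percent, with 95% Wilson intervals) by size class in kb for which loops of the other condition use both anchors (left), run from an anchor to a point inside (middle) or form a chain from anchor to anchor (right). Red points are THZ1-only loops against vehicle loops and blue points are vehicle-only loops against THZ1 loops. Above 200 kb the 2 sets overlap, and in loops of up to 90 kb a shorter loop was present in 32.7% and 6.62%.

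The 25 loops with neither anchor used by a vehicle loop had a median size of 340 kb, between 35.0 and 2680 kb, and median ratios of 4.27 and 3.82. Only 3 of them had a protein-coding start site at an anchor. These were a 750 kb loop from CENPE, which encodes the kinetochore motor CENP-E, with 53 contacts at 25 kb anchors in THZ1 replicate 1 and 22 at a different width in THZ1 replicate 2 (ratios 3.37 and 4.85), a 225 kb loop inside TMEM132B (ratios 3.71 and 3.25), and a 160 kb loop from BCAS4 to DPM1 and MOCS3 (ratios 3.45 and 3.20). The loops from CENPE and BCAS4 coincided with a contact domain in all 4 lists, and the nearest vehicle loops lay 25 and 27.5 kb away, just past the limit. DPM1 encodes a subunit of dolichol phosphate mannose synthase and MOCS3 a sulfurtransferase of molybdenum cofactor synthesis. The highest mean ratio of the 25 belonged to a 2680 kb loop on chromosome 21 that started in TMPRSS15, which encodes enteropeptidase. It held 14 and 13 contacts at ratios of 15.8 and 11.1, and it is named after its values were seen.

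The strength of the THZ1-only loops describes calls that had to exceed a threshold, and no test was made on it. The median ratio of observed to expected contacts was 3.88 in THZ1 replicate 1 and 3.69 in THZ1 replicate 2, against 5.16 and 4.8 for loops in all 4 lists. Observed contacts ran from 11 to 180 and from 11 to 152, and ratios from 1.76 to 16.6 and from 1.83 to 25.2. The ratio depends on anchor width, and 489 of the 789 loops had the same width in both THZ1 lists. Among these the 2 ratios gave a Pearson r of 0.904 on the log2 scale, against 0.463 over all 789. The 489 loops pool 88 with 5 kb, 158 with 10 kb and 243 with 25 kb anchors, so this r includes the spread between widths. No r within a width is given. The 2 ratios of a loop were within 1.5-fold of each other in 471 of 489. The median fold between them was 1.11, and the ratio was higher in THZ1 replicate 1 for 245. With each library classed by its own anchor width, and over 200 kb, the median ratio in THZ1 replicate 1 was 7.61 for THZ1-only and 8.05 for shared loops with 5 kb anchors, 5.03 and 4.70 with 10 kb anchors, and 3.10 and 2.95 with 25 kb anchors. In THZ1 replicate 2 the medians were 7.56 and 7.90, 5.03 and 4.64, and 3.07 and 2.96. In both libraries THZ1-only loops were thus slightly lower at 5 kb and slightly higher at the wider anchors, by less than the quartiles of either set. All 4 FDR values were at most 0.01 for 82.4% and 80.9% of the THZ1-only loops, against 87.4% and 86.0% of the shared loops. A single enriched pixel supported 64.5% and 67.8% of the THZ1-only calls, against 30.1% and 33.9%. This gap depended on anchor width. In THZ1 replicate 1 the shares were 60.4% against 24.9% at 5 kb, 67.7% against 44.1% at 10 kb and 63.6% against 55.7% at 25 kb.

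**Figure D4:**
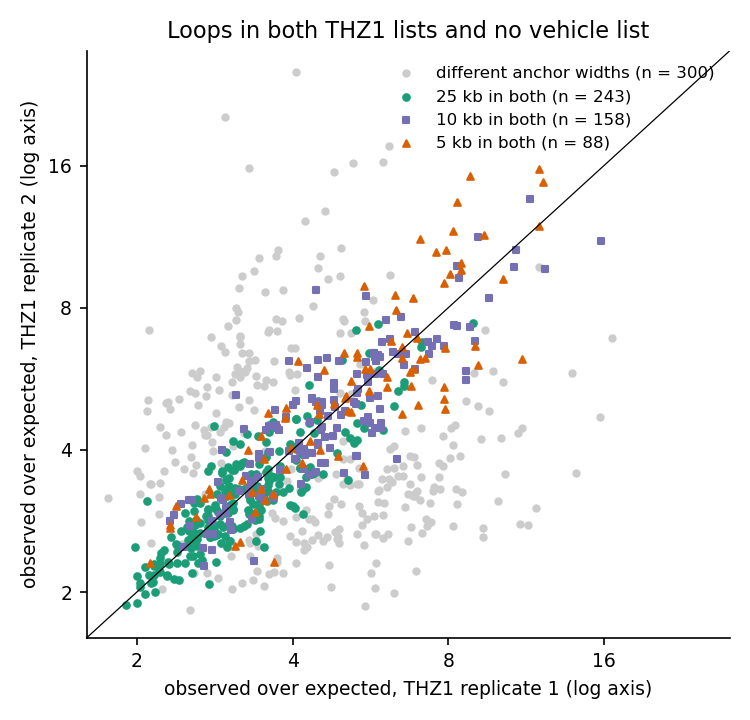
Observed over expected contacts of the 789 THZ1-only loops in THZ1 replicate 1 (horizontal) and THZ1 replicate 2 (vertical), both on log axes. Colours and shapes mark the 489 loops with the same anchor width in both lists, grey points the others, and the line marks equal ratios. Loops of equal width follow the line (r = 0.904, pooled over widths), and the grey points scatter around it.

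Of loops with at least 20 contacts in each THZ1 library, the highest mean ratio was found on chromosome 7, at 150820001 to 151005000. This loop of 180 kb started in an exon of AGAP3, which encodes a GTPase-activating protein of the Arf family, held 21 and 31 contacts at ratios of 8.30 and 13.4, and coincided with a contact domain in both THZ1 lists. Vehicle loops used both of its anchors, 5 and 3 times at the first and 1 and 4 times at the second, but the nearest vehicle loop had a corner 45.0 kb away. On chromosome X a 190 kb loop started in an intron of ARHGAP6 and its ratios were 8.45 and 9.95 with 26 and 30 contacts. Its first anchor held 4 plus-strand matches to the CTCF core consensus and its second anchor none. A 115 kb loop on chromosome 19 started in an exon of SSC5D, a scavenger receptor gene, with 34 and 35 contacts at ratios of 7.84 and 9.03. A 125 kb loop on chromosome 6, at 78925001 to 79075000, held 38 and 34 contacts at ratios of 8.95 and 7.41, and no vehicle loop used either anchor, although the nearest vehicle loop lay 27.5 kb away. A 990 kb loop between intergenic anchors on chromosome 8 reached 9.12 and 11.3 with 20 and 22 contacts. The remaining loop of this group, 1090 kb long and starting in exons of CHD2 and RGMA on chromosome 15, was called at 10 kb in THZ1 replicate 1 and at 25 kb in THZ1 replicate 2, and its ratios of 15.7 and 4.70 are at different widths. CHD2 encodes a chromatin remodeller and RGMA an axon guidance molecule.

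The loops with the most contacts, ranked by the lower of their counts in the THZ1 libraries, had low ratios. A 100 kb loop within GATAD2B, which encodes a subunit of the NuRD complex, held 150 and 149 contacts at ratios of 2.11 and 2.17. A 275 kb loop from FAM107B to CDNF, a neurotrophic factor gene, held 134 and 152 contacts at 2.58 and 2.97 and coincided with a domain in both THZ1 lists. A 225 kb loop from CDK17 to CFAP54 held 127 and 119 contacts at 3.07 and 2.99, and a 200 kb loop between intergenic anchors on chromosome 8, from 107000001, held 123 and 113 at 1.91 and 1.88. The longest loops had fewer contacts. The longest spanned 18025 kb of chromosome 8, from ASPH, which encodes aspartate beta-hydroxylase, to STMN2, which encodes a neuronal microtubule regulator, and held 36 and 28 contacts at 3.66 and 3.14. A 2875 kb loop on chromosome 10 started in PRKCQ, which encodes protein kinase C theta, with 28 and 23 contacts at 6.58 and 5.56. The other long loops measured 3650 kb from CDKAL1 to DCDC2 (ratios 4.07 and 25.2 at 25 and 5 kb anchors) and 2900 kb from TCP11 to ZFAND3 (5.80 and 2.65 at 10 and 25 kb anchors), both on chromosome 6.

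Start sites of 379 protein-coding genes, 1.89% of 20090, lay in an anchor of a THZ1-only loop. Of these, 307 also had their start site in an anchor of a vehicle loop and 72 did not, while 9662 of all 20090 protein-coding genes (48.1%) had theirs there. A start site was present in 309 of the 1578 anchors (19.6%), an exon but no start site in 584 (37%), an intron alone in 185 (11.7%) and no protein-coding gene in 500 (31.7%). The start-site share was 21.7% for anchors of loops in all 4 lists and 31.2% for vehicle-only loops, although the vehicle-only anchors were narrower. By width it was 14.9%, 20.5% and 30.1% for THZ1-only, shared and vehicle-only loops at 5 kb, 17.8%, 23.6% and 33.0% at 10 kb, and 23.3%, 32.9% and 33.8% at 25 kb, lowest for THZ1-only loops at each. Loop size was not matched in these shares. With 5 kb anchors the median sizes were 185, 145 and 60.0 kb in the same order. Both anchors held start sites in 52 THZ1-only loops (6.59%) and in 14% of the vehicle-only loops. Both anchors lay in the body of the same gene in 49.

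Of the 52 loops with start sites at both anchors, 4 with high mean ratios are given here besides that of CCN2 below, and they were chosen after their values were seen. ZRANB2, which encodes a splicing factor, was joined over 1200 kb to NEGR1, which encodes a neuronal adhesion protein, with 17 and 16 contacts at 8.38 and 9.26. The nearest vehicle loop, by the larger of its anchor distances, lay 1200 kb away. LEPR and LEPROT, the first of which encodes the leptin receptor, were joined over 1510 kb to DNAI4 and MIER1 with ratios of 11.1 at 10 kb and 4.44 at 25 kb anchors. ETV5, which encodes an ETS transcription factor, was joined over 680 kb to EIF4A2, which encodes a translation initiation helicase, with 24 and 22 contacts at 5.91 and 4.89. PTAR1 was joined over 500 kb to SMC5, which encodes a subunit of the SMC5/6 complex, with 28 and 25 contacts at 4.69 and 4.71. Vehicle loops used both anchors in each of these 4 pairs.

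Histone genes were the most frequent of the lists examined. These genes lie in clusters and are transcribed in S phase to package new DNA, and 17 of 71 (23.9%) had a start site in a THZ1-only anchor, against 1.89% of all protein-coding genes. All 17 came from 3 loops of the large cluster on chromosome 6, so they are not independent of each other. The first of these loops, 990 kb long, joined H2AC6 and H2BC4 with H2AC12 and H2BC12 and held 31 and 32 contacts at ratios of 4.14 and 3.97. The second, of 1625 kb, joined H1-4, H2BC5 and H2BC6 with 7 genes that included H3C10 and H4C11, and held 45 and 47 contacts at 2.98 and 3.46. The third, of 705 kb, ended at H2AC17, H2BC17 and H3C12 with 29 and 32 contacts at 6.32 and 8.51. The same window of 2 Mb held a 1150 kb loop from ABT1 with 40 and 46 contacts at 2.61 and 3.15. 3 of these 4 loops spanned a chain of vehicle loops, all but that of 1625 kb. Vehicle loops used both anchors of each, and 40 of the 71 histone genes (56.3%) had a start site in an anchor of a vehicle loop, against 48.1% of all protein-coding genes.

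Of 256 genes of developmental transcription factor families, 10 (3.91%) had a start site in a THZ1-only anchor, against 1.89% of all protein-coding genes, and 3 of the 10 lay in the same anchor. At vehicle anchors the list had 97 of 256 (37.9%), against 48.1% of all protein-coding genes. HOXA9, HOXA10 and HOXA11, which pattern the body axis and limbs, shared an anchor with 2 loops on chromosome 7. The loop of 1275 kb held 27 and 22 contacts at 6.58 and 5.46, and the loop of 800 kb held 52 and 45 at 6.40 and 5.33. HOXC8 on chromosome 12 was joined to a site 200 kb away with 17 and 18 contacts at 8.48 and 9.61. TFAP2B, which encodes an AP-2 factor, started a 1100 kb loop with 28 and 29 contacts at 6.89 and 7.09. FOXA2, a pioneer factor gene of endoderm, started a 100 kb loop with 40 contacts in each library at 3.43 and 3.5. MEIS1, a HOX cofactor gene, started a 1400 kb loop with ratios of 3.55 and 4.15. NKX6-1 and POU2F3, which act in pancreatic and tuft cells, had ratios of 4.20 and 2.46 over 730 kb and of 8.17 and 2.76 over 720 kb, each at widths that differed between the libraries, and SOX9 is described below.

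Of 26 oncogenes and growth regulators of triple negative breast cancer, 4 (15.4%) were at such an anchor, against 1.89% of all protein-coding genes. Of the same 26 genes, 19 (73.1%) were at an anchor of a vehicle loop, against 48.1% of all. CCN2, which encodes the matricellular protein CTGF and is a target of YAP, was joined over 860 kb to the start sites of RPS12 and SLC18B1 on chromosome 6, with 13 contacts in each library at 8.33 and 9.79. MYC, a transcription factor gene that drives growth, was joined to a site 860 kb away on chromosome 8 with 19 and 31 contacts at 6.41 and 3.52. SOX9, a stem and progenitor factor gene, was joined to a site 650 kb away with ratios of 8.65 and 5.07, and RB1, the retinoblastoma tumour suppressor gene, was joined to ITM2B over 70 kb at 2.32 and 2.83. In all 4 of these loops vehicle loops used both anchors.

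Other lists had few members at THZ1-only anchors, and where a gene's anchor width differed between the THZ1 libraries (MYC, SOX9, CDC25B, KIF20A, GDF5, INHBB and COL1A1) its ratios are not on 1 scale. Of 25 mitotic regulators 3 (12%) were found, against 1.89% of all protein-coding genes. Of the same 25 genes, 18 (72.0%) were at an anchor of a vehicle loop, against 48.1% of all. The 3 were CENPE, CDC25B, which encodes a phosphatase that activates CDK1 (ratios 2.63 and 4.98 over 300 kb), and KIF20A, which encodes a kinesin of cytokinesis, with ratios for the last of 5.77 and 2.66 over 320 kb. Of 89 signalling ligands of development 4 (4.49%) were found. WNT7B ended a 710 kb loop with 15 contacts in each library at 5.96 and 6.78, NOG, a BMP antagonist gene, started a 120 kb loop at 6.34 and 7.91, and GDF5 and INHBB had ratios of 2.71 and 4.30 and of 5.34 and 2.66. CDK13, a kinase that phosphorylates RNA polymerase II, was the only 1 of 15 transcriptional kinase genes, in a 375 kb loop with YAE1 that held 86 and 80 contacts at 2.90 and 2.79. COL1A1 and COL8A1 were 2 of 44 collagen genes, and COL1A1, which encodes the main chain of type I collagen, had ratios of 5.20 and 7.06. OVOL2 was 1 of 23 epithelial and luminal genes, in a 225 kb loop with ZNF133 at 2.22 and 2.36. Zinc finger genes gave 6 of 537 (1.12%) and olfactory receptors 3 of 399 (0.752%). None of 8 condensin, 14 cohesin and CTCF, 13 AP-1, 24 mesenchymal, 88 cadherin and protocadherin or 93 chemokine and interleukin genes had a start site there, but at the share of 1.89% over all genes lists of these sizes would hold few genes or none.

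The THZ1-only loops were spread over all chromosomes examined. They made up 36.9 per 1000 loops of THZ1 replicate 1 on chromosome 2, the lowest value, and 75.6 on chromosome 21, the highest, with 65.9 on chromosome 13 and 59.7 on chromosome 4. The chromosome 21 value rests on 13 loops. The median distance to the nearest other THZ1-only loop was 940 kb. Of 668 windows of 1 Mb that held such a loop, 562 held 1, 93 held 2 and 13 held 3 or 4. The fullest window of 2 Mb, on chromosome 10 from 60000001 to 62000000, held 5 of the 16 loops that THZ1 replicate 1 listed there. Windows on chromosomes 1, 6, 11 and 17 held 4, of 32, 44, 20 and 12 loops.

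The loops of several windows met in the same gene. On chromosome 17, a 175 kb loop from ARSG, which encodes a lysosomal sulfatase, to WIPI1 held 38 and 30 contacts at 6.87 and 5.93. A 775 kb loop joined the start sites of WIPI1, an autophagy gene, and ABCA10 with 46 and 48 contacts at 3.10 and 3.22, and a 250 kb loop ran from ABCA5 to MAP2K6, which encodes a kinase upstream of p38, with 79 and 70 contacts at 2.61 and 2.59. The fourth loop there, between genes, had ratios of 2.52 and 3.13. On chromosome 1, a 70 kb loop from CTNNBIP1, which encodes an inhibitor of beta-catenin, to the start sites of LZIC and NMNAT1 held 44 and 46 contacts at 3.77 and 4.40, and a 290 kb loop ended in SLC25A33 at 4.72 and 4.03, while a pair of loops met GPR157. On chromosome 11, 3 of the 4 loops had an anchor in PKNOX2, which encodes a homeodomain protein of the TALE class, and their ratios were 9.26 and 4.21, 3.09 and 5.79, and 3.15 and 4.94, each at widths that differed between the libraries.

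Few THZ1-only loops met at the same site. Their anchors formed 1512 sites, of which 1450 were in 1 loop, 59 in 2 and 3 in more, and 126 loops shared a site with another THZ1-only loop. The site shared by most, on chromosome 10 at 61375001 to 61400000, lay between genes and joined 4 loops. These ran 840 kb upstream to BICC1, which encodes an RNA-binding protein, 175 kb downstream to CCDC6, and 410 and 800 kb downstream into ANK3, which encodes ankyrin G. Their ratios in THZ1 replicate 1 were 5.38, 2.98, 4.36 and 4.23 and in THZ1 replicate 2 were 3.39, 4.59, 2.86 and 12.2, each at an anchor width that differed between the libraries. The fifth loop of the window joined the start site of CCDC6 with ANK3 over 525 kb at 2.74 and 2.84. On chromosome 6 an exon of TCP11 was the end of 3 loops, of 530, 970 and 2900 kb. On chromosome 1 an intergenic site at 89050001 to 89075000 ended loops of 415, 1300 and 1450 kb, and the latter pair held 47 and 48 and 45 and 45 contacts at 3.08 and 3.62 and at 3.55 and 3.87.

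Of the 177 THZ1-unique loops in a table of the authors' own pooled comparison, 7 (3.95%) matched a THZ1-only loop, which is 0.887% of the 789. They lay at MACF1 and PPIE, RFC3, PRKCH, CARD14 and RNF213, RNF138 and GAREM1, IGSF10 and MED12L, and ST3GAL1 and ZFAT. RFC3 encodes a subunit of the clamp loader of DNA replication, and MACF1 a protein that links actin and microtubules. The loop from RNF138 to GAREM1, both at their start sites, held 18 and 19 contacts at 4.11 and 4.14, and the IGSF10 loop held 24 and 27 at 5.34 and 5.80. Vehicle loops used an anchor in each of the 7.

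Contact domains are blocks of chromatin with raised internal contacts, and a loop often marks the corner of one. Domains with both boundaries within 20 kb of the anchors of a THZ1-only loop numbered 40 and 35 in the THZ1 lists and 14 and 22 in the vehicle lists, 37.5 ± 3.54 (SD, n = 2) against 18.0 ± 5.66 (SD, n = 2). The loops were chosen as called with THZ1 and not with vehicle, so these counts are a description, with no test. At the vehicle-only loops, which were chosen the opposite way, the THZ1 lists also gave more, with 34 and 33 loops that had a domain against 21 and 27. The THZ1 lists were longer, with 2477 and 2345 domains against 1198 and 1398. As a share of each list the values were 1.61% and 1.49% against 1.17% and 1.57%, which overlap. Both THZ1 libraries had such a domain at 23 THZ1-only loops, of which 9 had none in a vehicle list. In all, 29 THZ1-only loops had a domain in a vehicle list, where the loop itself was not called.

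Other loops that ended at the anchors of THZ1-only loops numbered 2360 and 2052 in the THZ1 lists and 2624 and 2994 in the vehicle lists. As a share of each list they made up 13.7% and 13.6% with THZ1 and 12.6% and 12.4% with vehicle. The anchors were chosen from these same lists, so both sets of values are a description, with no test.

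The strength of loops present in all conditions was measured at these anchors, which the rule did not use. Of 2620 loops with identical anchors in all 4 lists, 361 shared an anchor with a THZ1-only loop. With THZ1, 91 of the 361 (25.2%) were weaker and 1 was stronger (edgeR, quasi-likelihood, donut expectation as offset, Benjamini-Hochberg threshold 0.05), against a background of 27.5% weaker and 0.0382% stronger over all 2620. Their median log2 change was -0.38, against -0.41 over all loops tested. Both THZ1 ratios lay below both vehicle ratios in 231 (64%) of the 361, against 68.7% of all loops. The ratios of loops at THZ1-only anchors thus fell in a share close to that of the others. Weaker means a lower ratio of observed to expected contacts, and not always fewer contacts. A 360 kb loop on chromosome 12 called weaker held 51 and 53 contacts with THZ1 and 46 and 48 with vehicle. A 110 kb loop on chromosome 14 called weaker held 30 and 31 against 52 and 63. The edgeR counts rest on all 4 libraries: leaving out THZ1 replicate 1, THZ1 replicate 2 or vehicle replicate 2 left 0 calls, leaving out vehicle replicate 1 left 20 of 361, and DESeq2 called 0 of 361, with 37 at an unadjusted p under 0.05. The median stayed between -0.44 and -0.36 without any 1 library. Scaling the observed contacts by TMM, with no expectation, gave a median of 0.06 for the 361. TMM centres the changes over all loops by its construction, so this value does not bear on whether the observed contacts themselves fell.

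**Figure D5:**
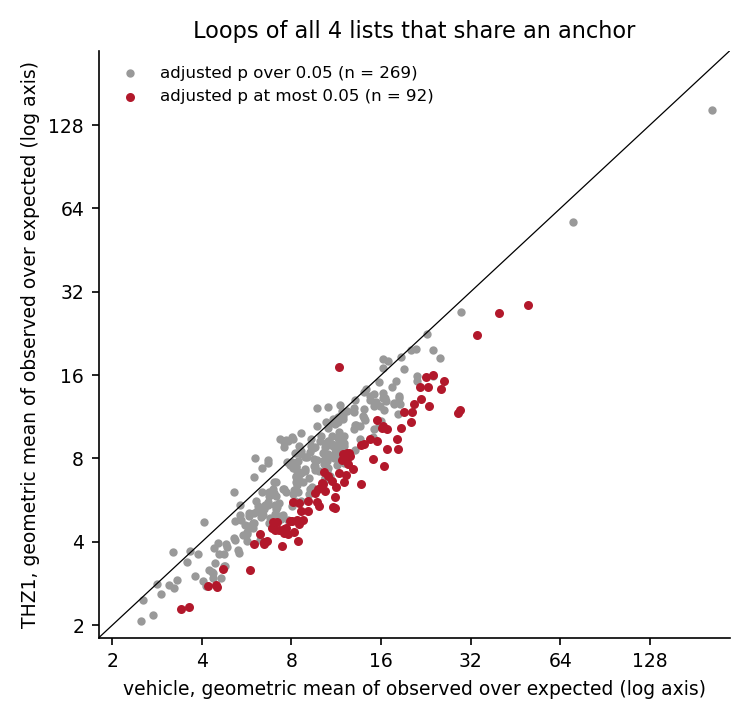
Observed over expected contacts of the 361 loops in all 4 lists that share an anchor with a THZ1-only loop, as geometric means of the 2 vehicle libraries (horizontal) and the 2 THZ1 libraries (vertical), both on log axes. Red points have an adjusted p of at most 0.05 in edgeR, and the line marks equal ratios. Of the red points, 91 lie below the line and 1 above it.

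At MYC, 2 loops of all 4 lists shared the anchor of the THZ1-only loop. The loop from 127835001 to 128750000, which starts 50 kb upstream of the THZ1-only loop, had ratios of 7.77 and 7.22 with THZ1 and 20.0 and 13.5 with vehicle, with 28, 30, 39 and 32 contacts in that order and a log2 change of -1.13 (edgeR adjusted p = 0.00414). The loop that runs downstream to 129200000 had ratios of 4.58 and 8.69 against 12.1 and 10.5 (log2 change -0.86, edgeR adjusted p = 0.0200). Both THZ1 values lay below both vehicle values at each. In the histone cluster, a 35.0 kb loop from 26120001 had ratios of 4.22 and 3.86 against 6.65 and 6.61 (-0.71, edgeR adjusted p = 0.00526), while a loop from 27805001 to 27860000 had 5.09 and 5.25 against 5.26 and 7.77 (-0.34, edgeR adjusted p = 0.224). At HOXA9 to HOXA11 the 3 loops that share the distant anchors had log2 changes from -0.64 to -0.46, none past the threshold. At COL1A1 a 70.0 kb loop had ratios of 5.41 and 4.96 against 9.14 and 8.11 (-0.72, edgeR adjusted p = 0.00647), while a 130 kb loop at the other anchor had 3.49 and 3.95 against 4.33 and 3.09 (0.01, edgeR adjusted p = 0.963). At the YAE1 anchor of the loop from YAE1 to CDK13, a loop of 165 kb that ends short of CDK13 had 19.2 and 17.4 against 16.3 and 16.3 (0.17, edgeR adjusted p = 0.426). The only loop called stronger, on chromosome 19 from 30100001 to 30185000, had ratios of 18.5 and 15.9 with THZ1 and 11.3 and 11.9 with vehicle (0.57, edgeR adjusted p = 0.0457).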

How the data were processed

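Arima-HiC, an in situ chromosome conformation assay that cuts with restriction enzymes, was performed on MDA-MB-231 cells, and the authors processed the reads with Juicer 1.6 on hg19 per the submitters' processing notes. The deposited loop lists, written by juicer_tools 1.19.02 per the file headers, hold for each library the observed contact count at a loop's pixel (HiCCUPS, anchors of 5, 10 or 25 kb). The authors' expected contacts from 4 neighbourhoods form a signal on the same scale, and the deposited FDR (q-value) sets the observed count against each neighbourhood. The deposited domain lists (Arrowhead, 10 kb) give a corner score, of which only the boundaries were used. A deposited pooled table of THZ1-unique loops was matched by position only, and its counts were not compared.

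Loops were matched where both anchor midpoints lay within 20 kb, and a vehicle loop used an anchor where an end had its midpoint within 20 kb. All 77275 loops fit the GRCh37 chromosome lengths, and genes came from GENCODE on that build. The members and the gene lists were chosen with earlier results of these data known. Loops with identical anchors in all 4 lists were tested with edgeR 4.0.16 (R 4.3.3), after 4 with an expected count at or near 0 were left out. An exact permutation test planned for values per library at the chosen sites is not reported, because the sites were chosen from the same libraries. Matching and the edgeR step were tested on simulated data. Wilson intervals (95%) cover counting error only. Loops named are, by rule, the 6 with the highest mean log2 ratio among those with at least 20 contacts in both THZ1 lists, the 4 with the most contacts, the 4 longest, those in the authors' table, those in the fullest windows and shared sites, and those at genes of the lists. Outside this rule, and after their values were seen, 4 convergent loops, 4 loops with start sites at both anchors and the chromosome 21 loop from TMPRSS15 were named. Alternatives were DESeq2 1.42.0, TMM scaling, the bottom-left expectation, other matching distances, a stricter FDR, other anchor and motif definitions, a replicate block and leaving out each library.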

Additional observations from a re-analysis of the deposited data

How the results depend on the processing

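The number of THZ1-only loops was 1037 when matching within 10 kb, 614 within 50 kb, 533 with all 4 FDR values at most 0.01, 811 when listed from THZ1 replicate 2 and 303 with 10 kb anchors alone, and between 1381 and 3230 without 1 library, since fewer lists then had to be met. The median size was 325, 500, 430, 420 and 360 kb in the same order and 325 to 375 kb without 1 library. The share with a vehicle-used anchor was 98.2% and 95% when matching within 10 and 50 kb, 93.9% where anchor intervals had to overlap, 91.0% where both vehicle lists had to use it, and 93.2% to 95.2% without 1 library. The convergent share was 4.29% with 10 kb anchors, 16.6% with the looser consensus and 3.34% to 5.14% without 1 library. The log2 ratio of domains, 1.06 by count, was 0.18 as a share of each list, 0.83 to 0.95 without 1 library and positive in the other alternatives run. Other loops at these anchors changed direction, from a log2 ratio of -0.35 to 0.13, as a share of each list, and stayed between -0.45 and -0.25 without 1 library.

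Of the 361 loops that share an anchor, the share called weaker, 25.2% in edgeR, was 0.0% with DESeq2 (37 at an unadjusted p under 0.05), 2.22% with TMM, 0.0% of 1309 when the nearest loop within 20 kb was taken (247 at an unadjusted p under 0.05), and 0.0% to 5.54% without 1 library (78 to 106 at an unadjusted p under 0.05). Their median log2 change was 0.06 with TMM and negative in the 10 other alternatives. Over all 2620 loops, edgeR called 720 weaker and 1 stronger, DESeq2 16 and 0, and TMM 108 and 67. Without vehicle replicate 1 edgeR called 216 weaker, and without any other library 0. The cause was not tested. With the replicate block 26.6% of the 361 were weaker; the replicate numbers did not pair the samples, with a correlation of deviations of 0.0178. The lists give no contact total per library, and contact counts at THZ1-only loops as low as 11 limit their precision.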
